A study of Rattus norvegicus and Mus musculus with 24 samples.

Results

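The 10 genes described here encode enzymes that remove superoxide and peroxides: the superoxide dismutases SOD1, SOD2 and SOD3, the glutathione peroxidases GPX1 and GPX3, and the peroxiredoxins PRDX1, PRDX2, PRDX3, PRDX5 and PRDX6. They were taken by symbol from the deposited tables. All 10 were found among the 17376 symbols of the mouse table and 9 among the 14931 symbols of the rat table, and rat GPX3 was not analysed here. The tables use upper-case symbols for both species, and these are kept below.

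Kidney RNA was sequenced from 4 Ctns KO and 4 WT mice and from 8 Ctns KO and 8 WT rats, 1 library per animal. The KO animals lack cystinosin, the lysosomal cystine exporter encoded by Ctns. The methods give a C57BL/6 background for the mice and a Sprague-Dawley background for the rats, with WT littermates as controls. They describe KO and control animals as matched for age and sex, and the study's notes on its animals name female mice of several ages. Which of these ages was sequenced, and the age and sex of the sequenced rats, are not given in the sources used here. The labels name no treatment for these libraries. The methods name kidney cortex, whereas the labels name cortex, proximal tubule cells and a protocol with microdissected proximal tubules, so the tissue is left as each states it. In the titles the rats carry numbers 17 to 24 or 25 to 32, each range with 4 KO and 4 WT rats. The labels do not say what the ranges stand for, and they are called rats 17-24 and rats 25-32 here.

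Superoxide dismutases turn superoxide into hydrogen peroxide. SOD1 works with copper and zinc in the cytosol, SOD2 with manganese in the mitochondrial matrix, and SOD3 outside the cell. Peroxiredoxins and glutathione peroxidases then reduce the peroxide to water, with electrons from thioredoxin or glutathione. The proximal tubule is rich in mitochondria, and its cells are the main source of GPX3, the selenoprotein peroxidase of the plasma.

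To show the regulatory sequence of the members past the threshold in a comparison of KO with WT rats, the 250 bases before the start of each of these 4 genes follow, 5′ to 3′, from RefSeq promoters of the rat build GRCr8. This build is not the one named in the processing notes, and the sequences were not used for any count. Capitals mark GGGCGG, the GC box bound by Sp factors, and TGACNNNGC, the core of the antioxidant response element bound by NRF2, on either strand.
SOD1, chr11:42942573-42942822, plus strand: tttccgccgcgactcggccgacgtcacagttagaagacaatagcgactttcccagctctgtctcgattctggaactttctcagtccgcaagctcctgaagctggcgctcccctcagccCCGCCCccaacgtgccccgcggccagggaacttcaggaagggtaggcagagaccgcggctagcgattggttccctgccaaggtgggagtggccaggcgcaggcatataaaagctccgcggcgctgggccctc
SOD2, chr1:50050169-50050418, minus strand: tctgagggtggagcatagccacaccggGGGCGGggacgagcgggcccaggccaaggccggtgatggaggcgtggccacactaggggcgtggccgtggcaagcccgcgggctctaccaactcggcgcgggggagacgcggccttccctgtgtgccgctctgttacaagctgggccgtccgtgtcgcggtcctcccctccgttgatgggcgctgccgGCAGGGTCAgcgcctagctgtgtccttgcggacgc
PRDX2, chr19:40090983-40091232, minus strand: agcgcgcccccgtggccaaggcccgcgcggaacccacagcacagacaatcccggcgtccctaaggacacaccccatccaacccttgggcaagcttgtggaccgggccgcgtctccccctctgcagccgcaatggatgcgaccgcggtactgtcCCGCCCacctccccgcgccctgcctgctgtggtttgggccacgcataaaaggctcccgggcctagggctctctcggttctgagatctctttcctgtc
PRDX3, chr1:270000112-270000361, minus strand: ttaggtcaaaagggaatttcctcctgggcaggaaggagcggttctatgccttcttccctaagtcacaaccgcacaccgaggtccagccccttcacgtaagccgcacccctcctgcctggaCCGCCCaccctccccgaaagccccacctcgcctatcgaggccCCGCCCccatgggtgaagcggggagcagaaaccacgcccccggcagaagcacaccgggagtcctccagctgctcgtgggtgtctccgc

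Sequences were found for 8 of the 10 members; SOD3 and PRDX6 had none. All 8 held at least 1 GC box, a match found in 30.5% of the 33469 rat promoters of the same length. The antioxidant response element core was found in SOD2, with its first base 35 bases before the start, and in PRDX1, 135 bases before it, against 10.1% of all promoters. TATAAA was found in SOD1 and PRDX1, against 12.9%. CCAAT was found in SOD1, against 34.0%, and CACGTG in none of the 8, against 5.59%. The 2 GC boxes of PRDX1 overlap by their last and first base. A match of letters is a description and not a binding site.

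Depth was 19309371 to 33727358 reads in KO mice and 19716898 to 44449845 in WT mice, and 24684097 to 31165596 in KO rats and 25002089 to 40629873 in WT rats. Every member had at least 1890.5 reads in every mouse and 5904 in every rat. Mouse PRDX6 came out at a fraction of 0.5 of a read in 5 of 8 mice, unlike the other members, and its mouse values are uncertain for that reason. As a check of the labels, CTNS lay between 0.319 and 0.342 scaled units in KO mice and between 0.824 and 1.03 in WT mice. In rats it lay between 16.8 and 22.2 CPM (reads of a gene scaled to the size of the library) in KO and between 19.2 and 27.8 in WT, and the groups overlapped (log2 difference -0.22 ± 0.08 SE, adjusted p = 0.0511, edgeR). The data do not show which part of Ctns is deleted, so residual CTNS reads say nothing about the protein.

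Levels between members can be compared only per length of transcript, which was done for the mouse alone (GENCODE vM21, GRCm38, longest principal transcript). In WT mice GPX3 was the highest at 21880 ± 1223 RPKM (reads per kilobase of transcript, scaled to the size of the library; SD, n = 4). It took 3.30% to 3.71% of all reads in WT mice and 2.81% to 3.22% in KO mice. GPX1 followed at 1282 ± 146 RPKM, PRDX5 at 858 ± 41.5 and SOD1 at 651 ± 70.7. PRDX1 stood at 307 ± 7.22 RPKM. SOD3, PRDX2 and PRDX3 lay at 127 ± 15.9, 125.15 ± 8.43 and 121 ± 2.17 RPKM, and neighbours among these 3 overlapped. SOD2 at 60.1 ± 4.29 and PRDX6 at 44.4 ± 4.55 RPKM were the lowest. GPX3, GPX1 and PRDX5 also led on the union of all exons, whereas SOD1, whose union is 3970 bases against 641 for the transcript, dropped to place 7 of the 10 on that scale.

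The members are spread over the mouse genome (GRCm38), with Sod1 at chr16:90220754-90226329, Sod2 at chr17:13006846-13040063, Gpx1 at chr9:108338903-108340343 and Gpx3 at chr11:54902453-54910377. Prdx3 and Prdx5 share a chromosome, at chr19:60864051-60874556 and chr19:6906697-6910106.

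In mice, no member passed the threshold of adjusted p under 0.05 (limma on log2(value + 1)), against 4.32% of all 17376 symbols, 3.50% higher and 0.817% lower in KO. GPX3, PRDX5 and SOD1 had the lowest p-values of the 10, and in each of these 3 all 4 KO mice lay below all 4 WT mice on the deposited scale, as in 3.92% of all symbols. As shares of library totals this held for GPX3 alone of the 3, against 1.48% of all symbols. These mouse shares are over all symbols without a filter on low counts, unlike the rat shares below. With edgeR on filtered reads, 1198 of 13442 symbols were called in mice. Of the 10 fitted differences, 8 were below 0, with a median of -0.09 on the log2 scale, against 0.00 over all symbols. In bulk RNA, fewer cells of a type and less RNA per cell cannot be told apart.

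The mouse values are the reads of a gene divided by the 75th percentile of its library, called scaled units here. For GPX3 the 4 KO mice had 578, 582, 590.1 and 645 scaled units and the 4 WT mice 696, 717, 751 and 802. The highest KO mouse stood below the lowest WT mouse, and the difference of the means was -19.3% (log2 difference -0.31, 95% interval -0.50 to -0.11, adjusted p = 0.0922). With edgeR on the reads recovered from the table, GPX3 passed the threshold at -0.33 (adjusted p = 0.0392). Scaled to library totals it did not (-0.23, adjusted p = 0.117), though the groups did not overlap on that scale either.

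PRDX5, the peroxiredoxin found in mitochondria, peroxisomes and cytosol, had 19.8, 20.2, 20.6 and 20.9 scaled units in KO mice. The WT mice had 22.03, 22.3, 23.3 and 24.5. The groups did not overlap and the difference of the means was -11.4% (log2 difference -0.17, 95% interval -0.27 to -0.06, adjusted p = 0.0929). On library totals they overlapped, with a highest KO share of 0.10449% of all reads and a lowest WT share of 0.10435%, and the PRDX5 difference was -0.10 (adjusted p = 0.411). SOD1, the cytosolic dismutase, had 7.26, 7.67, 7.69 and 7.80 scaled units in KO mice and 8.18, 8.30, 8.77 and 10.2 in WT mice. Here too the groups did not overlap, with a difference of the means of -14.3% (log2 difference -0.19, 95% interval -0.35 to -0.04, adjusted p = 0.178). On library totals the SOD1 groups overlapped, with a highest KO share of 0.0389% and a lowest WT share of 0.0383%, and the difference was -0.15 (adjusted p = 0.279). None of these 3 passed the threshold when any 1 mouse was left out.

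On the deposited scale the other 7 members overlapped between the genotypes in mice. As shares of library totals PRDX2 did not, with a lowest KO share of 0.02136% and a highest WT share of 0.021348% of all reads. The share of all symbols that separate upward on that scale was not counted. SOD2, the mitochondrial dismutase, lay at 6.44 to 7.40 scaled units in KO and 6.83 to 8.17 in WT (log2 difference -0.09, 95% interval -0.24 to 0.06). SOD3, the extracellular dismutase, lay at 7.77 to 9.41 and 8.59 to 11.1 (-0.17, interval -0.38 to 0.05). GPX1, the cytosolic glutathione peroxidase, and PRDX2, a cytosolic peroxiredoxin abundant in red cells, were the 2 with fitted differences above 0, at 0.16 (interval -0.09 to 0.40) and 0.09 (interval -0.05 to 0.22). PRDX1, PRDX3 and PRDX6 stood at -0.08, -0.06 and -0.09. PRDX3, the mitochondrial peroxiredoxin, had the narrowest interval, -0.12 to 0.01. On library totals the PRDX3 difference was 0.00 and its sign turned.

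**Figure D1:**
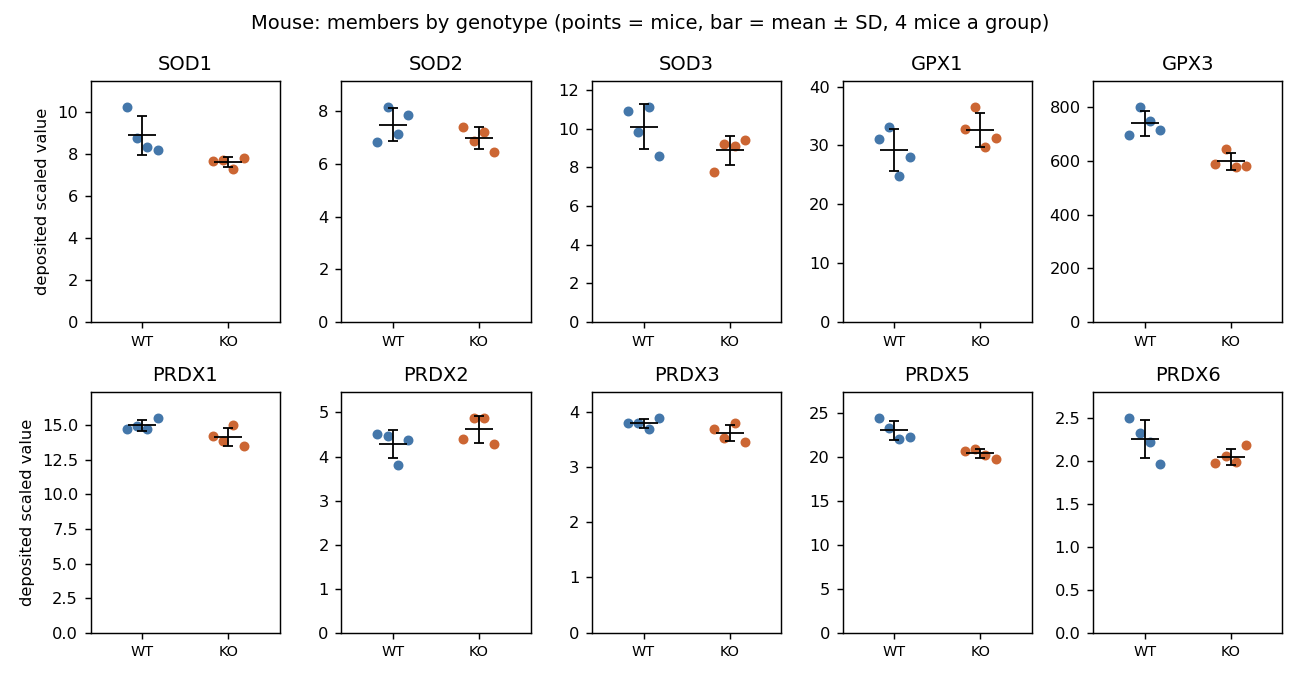
Each panel shows 1 member, with the deposited scaled value on an axis from 0 and WT (blue) beside KO (orange); points are mice and bars the mean ± SD of 4 mice. On this scale the KO and WT points separate for SOD1, GPX3 and PRDX5 and overlap for the other 7 members; as shares of library totals only GPX3 of these 3 separates.

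In rats, values are given as CPM scaled with the TMM factors of edgeR, over all 16 rats. This choice bears on the members. The TMM factors were 0.890 to 0.952 in the WT rats 25-32 and 0.994 to 1.08 in the other 12 rats, so scaling to library totals moves that group against the rest. On library totals the median log2 difference of all symbols was 0.07 over all rats and 0.15 in rats 25-32, and with TMM it was -0.02 and -0.01. Differences below are relative to the TMM scale, and each call that the other scale ends or turns is named with it.

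Over all 16 rats, 1 of 9 members passed the threshold (edgeR), lower in KO, against 27.5% of the 11584 symbols tested, 15.2% higher and 12.3% lower. The one was PRDX3. The KO rats lay between 222 and 259 CPM with a median of 246, and the WT rats between 243 and 276 with a median of 268. The groups overlapped, 3 KO rats lay below every WT rat, and the difference of the means was -8.44% (log2 difference -0.13 ± 0.04 SE, adjusted p = 0.0411). On library totals the difference was -0.04 (adjusted p = 0.564), and without each rat in turn the adjusted p ran from 0.0214 to 0.116, past the threshold in 2 of 16 fits, those without WT rat 19 or KO rat 22.

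SOD1 and SOD2 stood close to the threshold over all rats. SOD1 ran from 489.7 to 734 CPM in KO rats, median 533, and from 559 to 906 in WT rats, median 681. The ranges overlapped and 5 of 8 KO rats lay below all WT rats (-0.30 ± 0.11 SE, adjusted p = 0.0528). SOD2 ran from 269 to 331 CPM in KO, median 302, and from 303 to 357 in WT, median 337 (-0.14 ± 0.05 SE, adjusted p = 0.0579). With the number range as a covariate both passed, SOD1 at adjusted p = 0.00484 and SOD2 at 0.0401, and both passed with DESeq2. Leaving out 1 rat brought SOD1 past the threshold in 3 of 16 fits, without WT rat 19, WT rat 23 or KO rat 32, and SOD2 in 3 of 16, without WT rat 19, WT rat 21 or KO rat 22. On library totals neither passed, at -0.20 (adjusted p = 0.116) for SOD1 and -0.05 (adjusted p = 0.470) for SOD2.

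The remaining 6 members had adjusted p-values of 0.193 or more over all rats. PRDX2 stood at 0.17 (95% interval -0.03 to 0.36), PRDX1 at 0.07 (interval -0.11 to 0.25) and SOD3 at 0.01 (interval -0.56 to 0.57). GPX1 stood at -0.10 (interval -0.55 to 0.34), PRDX5 at -0.08 (interval -0.24 to 0.09) and PRDX6 at -0.09 (interval -0.24 to 0.07). On library totals PRDX2 passed at 0.26 (adjusted p = 0.0292), and GPX1, PRDX5 and PRDX6 turned to 0.01 each. SOD3 and GPX1, with the widest intervals, also had the largest differences between the number ranges.

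**Figure D2:**
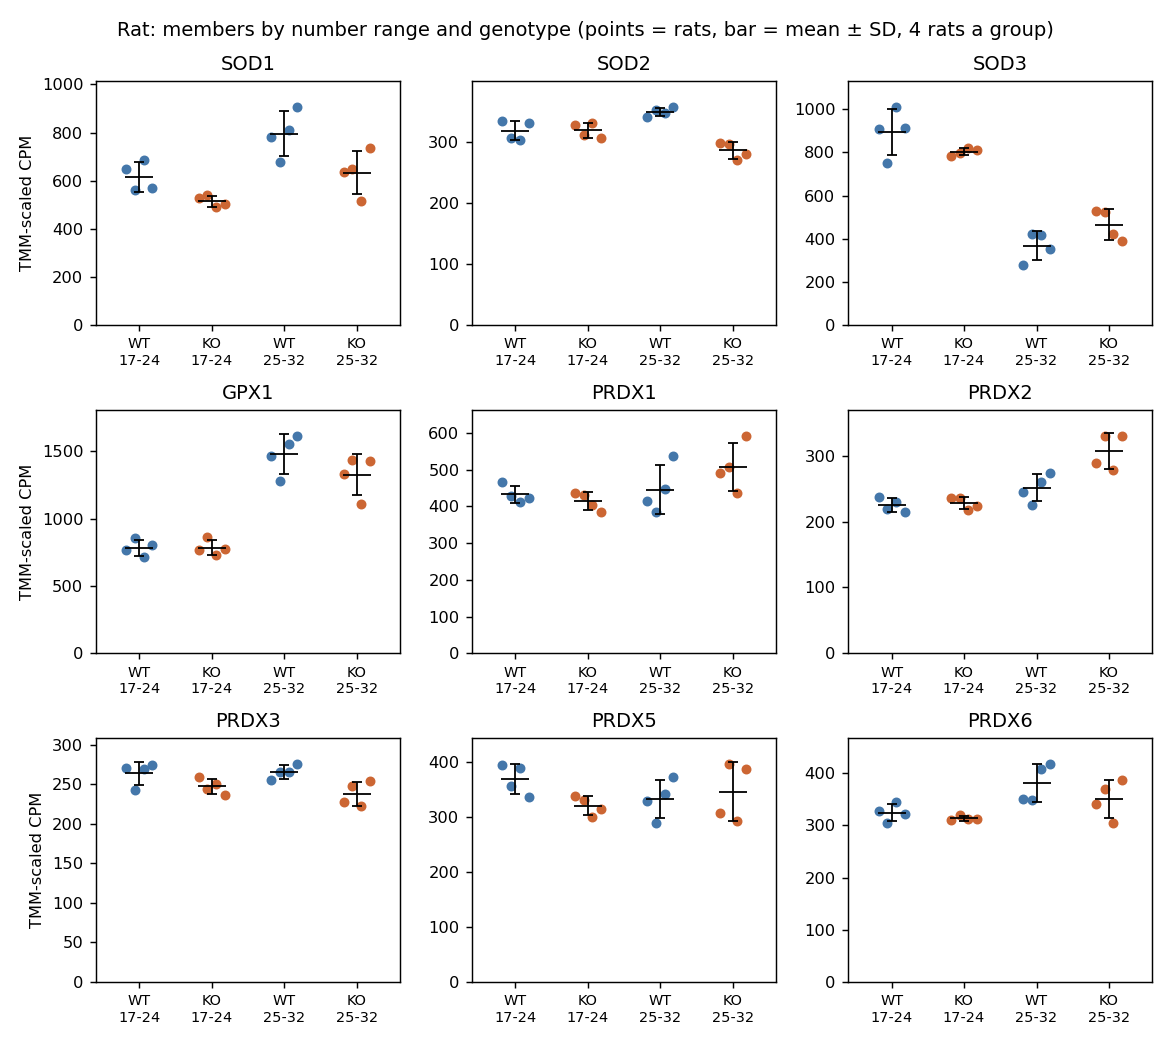
Each panel shows 1 member in rats, as TMM-scaled CPM on an axis from 0, for WT (blue) and KO (orange) of rats 17-24 and rats 25-32; points are rats and bars the mean ± SD of 4 rats. SOD3 and GPX1 separate by number range, SOD2, PRDX2 and PRDX3 separate by genotype in rats 25-32, and SOD1 lies lower in KO in both ranges. On library totals PRDX3 overlaps between the genotypes in rats 25-32.

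Within rats 17-24, none of the 9 members passed, against 7.26% of 11610 symbols, and SOD1 and PRDX5 had unadjusted p-values under the threshold. DESeq2 called both, SOD1 at adjusted p = 0.0125 and PRDX5 at 0.0398. SOD1 had 489.7, 501, 526 and 539.8 CPM in KO and 559, 568, 648 and 685 in WT. All 4 KO rats lay below all 4 WT rats, as in 5.87% of the symbols tested, with a difference of the means of -16.4% (log2 difference -0.25 ± 0.07 SE, adjusted p = 0.0541, edgeR). PRDX5 had 299, 315, 331 and 339 CPM in KO and 336, 357, 388 and 395 in WT. A single KO rat reached the WT range, and the difference of the means was -13.1% (-0.19 ± 0.06 SE, adjusted p = 0.0932). The other 7 members overlapped in these rats, with differences from -0.15 for SOD3 to 0.03 for PRDX2. SOD1 passed without WT rat 19 or WT rat 23 (lowest adjusted p = 0.0322) and PRDX5 without WT rat 23 (adjusted p = 0.0352). SOD3 passed without WT rat 19, the lowest WT value, at -0.22 (adjusted p = 0.0472).

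Within rats 25-32, 3 of 9 members passed, against 43.8% of 11633 symbols: SOD1 and SOD2 lower, against 22.1% of all symbols lower, and PRDX2 higher, against 21.8% higher. On the TMM scale, groups that did not overlap were found for SOD2 and PRDX3, lower in KO, against 19.9% of all symbols, and for PRDX2, higher in KO, against 20.4%. On library totals PRDX3 overlapped. The median of the 9 differences was -0.12, against -0.01 over all symbols. In the same libraries 10 of 11 proximal tubule markers were lower in KO, with a summed level of 11301 to 13685 CPM against 21274 to 23477 in WT, and 8 of 9 macrophage markers, 6 of 6 fibroblast markers and 7 of 7 injury markers were higher. Their part in the members' values was not tested.

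SOD2 had 269, 280.4, 297 and 298 CPM in the KO rats and 340.5, 348, 352 and 357 in the WT rats. The groups did not overlap and were narrow, and the difference of the means was -18.02% (log2 difference -0.29 ± 0.06 SE, adjusted p = 0.00265). The call held without each of the 8 rats. On library totals the difference was -0.12 (adjusted p = 0.0743) and the call was lost.

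SOD1 had 515, 637, 647 and 734 CPM in KO and 678, 781, 812 and 906 in WT. Of the KO rats, 3 lay below all WT rats, and the difference of the means was -20.3% (-0.33 ± 0.11 SE, adjusted p = 0.0371). Leaving out 1 rat moved the adjusted p between 0.0187 and 0.0895, past the threshold in 2 of 8 fits, those without WT rat 27 or KO rat 32. On library totals the difference was -0.17 (adjusted p = 0.175).

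PRDX2 had 279, 289.9, 331 and 331 CPM in KO and 226, 246, 261 and 273 in WT. The lowest KO rat stood above the highest WT rat, and the mean was 22.3% higher (0.29 ± 0.08 SE, adjusted p = 0.0135). This call held without each of the 8 rats and on library totals, where it was 0.45 (adjusted p = 0.000406). Of the erythrocyte markers, none of the 6 tested passed, and their summed level was 349 to 566 CPM in KO and 503 to 699.6 in WT rats 25-32. Their part in the PRDX2 values was not tested.

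PRDX3, from 222 to 254 CPM in KO and 255 to 276 in WT, did not overlap between the genotypes but stayed short of the threshold (-0.16 ± 0.06 SE, adjusted p = 0.0529). It passed without a filter on low counts (-0.17, adjusted p = 0.0448) and with DESeq2 (-0.16, adjusted p = 0.0438). On library totals its groups overlapped, at 235 to 257 CPM in KO and 240 to 253 in WT, and its difference was 0.00. SOD3 had 387, 422, 523 and 527 CPM in KO and 277, 350.3, 419 and 422 in WT. Its groups overlapped, with 2 KO rats above all WT rats (0.34 ± 0.15 SE, adjusted p = 0.0802), and on library totals it passed at 0.50 (adjusted p = 0.0205). PRDX1, at 436 to 593 CPM in KO and 384 to 537 in WT, stood at 0.19 (adjusted p = 0.207) and on library totals passed at 0.35 (adjusted p = 0.0136). GPX1, PRDX5 and PRDX6 stood at -0.16, 0.05 and -0.12 with intervals that included 0. GPX1 and PRDX6 turned to 0.01 and 0.04 on library totals. Leaving out 1 rat brought SOD3 past the threshold without WT rat 27 or KO rat 32, PRDX1 without WT rat 31 and PRDX3 without KO rat 32.

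**Figure D3:**
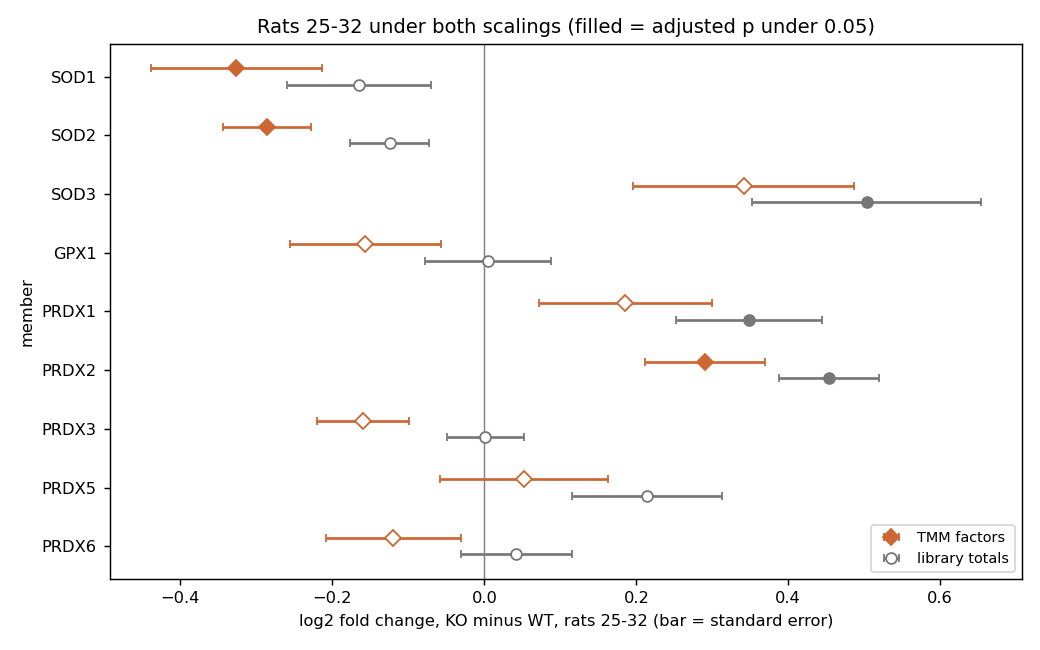
For each of the 9 members the log2 difference of KO minus WT in rats 25-32 is drawn with TMM factors (diamonds) and with library totals (circles), with standard errors and with filled marks for adjusted p under 0.05. Library totals move all 9 members up; PRDX2 is filled on both scales, SOD1 and SOD2 on the TMM scale, and SOD3 and PRDX1 on library totals.

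The difference between the ranges was tested as an interaction of genotype and number range. SOD2 passed (-0.29 ± 0.07 SE, adjusted p = 0.0163), 1 of 9 members against 14.7% of 11839 symbols. In rats 17-24 its KO values of 306 to 331 CPM lay within the WT values of 303 to 333 (0.01 ± 0.06 SE), whereas in rats 25-32 they lay below. The interaction passed in all 16 fits that left out 1 rat but on library totals it was -0.15 (adjusted p = 0.110). SOD3 at 0.49 (adjusted p = 0.0713) and PRDX2 at 0.27 (adjusted p = 0.0731) passed with DESeq2 and on library totals, where PRDX1 at 0.39 and PRDX5 at 0.39 passed too. SOD3 also passed without KO rat 32, and PRDX2 without WT rat 31 or KO rat 30. For SOD1 the interaction was -0.07 (95% interval -0.38 to 0.23).

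**Figure D4:**
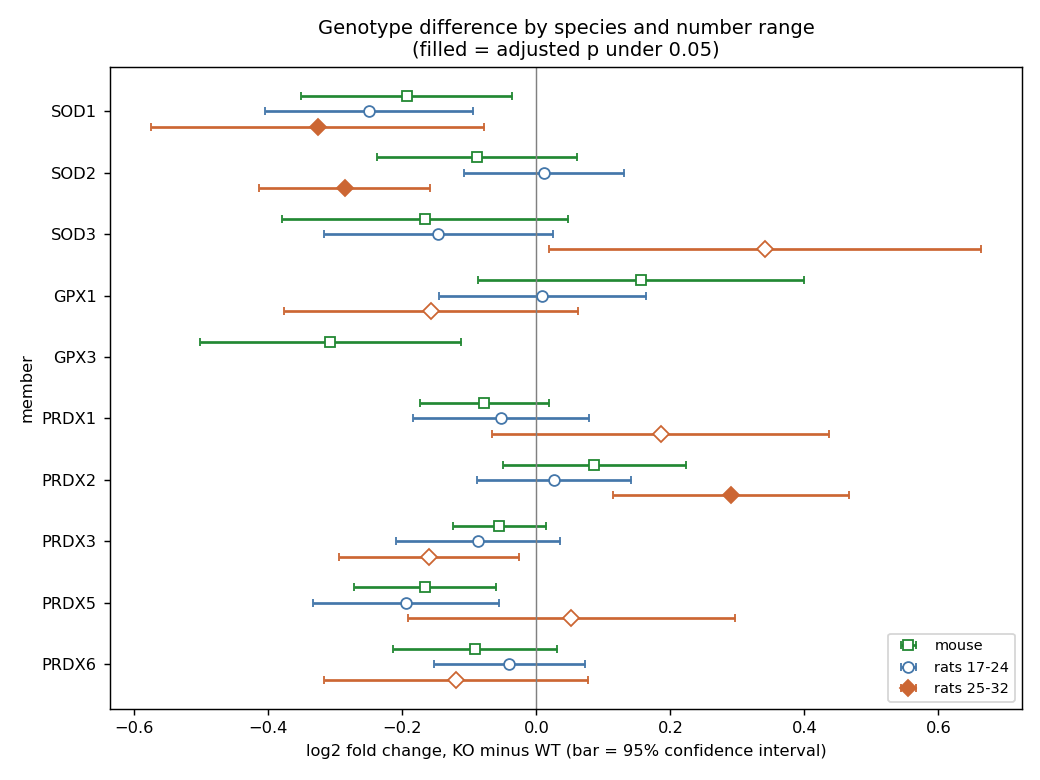
Log2 differences of KO minus WT are drawn with 95% confidence intervals for each member in mice (squares), rats 17-24 (circles) and rats 25-32 (diamonds), filled where the adjusted p was under 0.05. The 3 filled marks are SOD1, SOD2 and PRDX2 in rats 25-32, and SOD1 lies below 0 in all 3 sets.

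The 2 largest differences of any member in these comparisons were between the number ranges, in SOD3 and GPX1. Among the 8 WT rats, 3 of 9 members passed between rats 25-32 and rats 17-24, against 18.3% of 11504 symbols, 8.79% higher and 9.54% lower. SOD3 had 749.7, 909, 911 and 1010.3 CPM in WT rats 17-24 and 277, 350.3, 419 and 422 in WT rats 25-32. All 4 rats 25-32 lay below all 4 rats 17-24, with a difference of the means of -59.0% (log2 difference -1.31 ± 0.14 SE, adjusted p = 0.000144). GPX1 went the other way, from 715, 766, 802 and 857 CPM to 1277, 1469, 1553 and 1617, an 88.5% higher mean (0.89 ± 0.09 SE, adjusted p = 8.46e-05). SOD1 was higher in rats 25-32 by 29.1% with overlapping groups (0.34 ± 0.10 SE, adjusted p = 0.0296), and on library totals it was not called (0.24, adjusted p = 0.0610). The SOD1 call was also lost in 5 of 8 fits, without WT rat 19, 23, 25, 29 or 31, and PRDX6, at 0.21 (adjusted p = 0.0756), was called without WT rat 27 and with DESeq2 (0.22, adjusted p = 0.0389). The calls of SOD3 and GPX1 held without each WT rat and on library totals. PRDX5, at -0.17 with TMM (adjusted p = 0.189), was called on library totals at -0.28 (adjusted p = 0.0203). The KO rats, which were not part of this test, showed non-overlapping ranges for the same pair: 387 to 527 against 785 to 821 CPM for SOD3 and 1109 to 1436 against 730.5 to 867 for GPX1. SOD2 and PRDX2 did not overlap between the ranges in KO rats either, with SOD2 lower and PRDX2 higher in rats 25-32. Groups without overlap in one direction or the other were found for 42.1% of the symbols in this comparison of KO rats. In WT rats SOD2 and PRDX6 did not overlap between the ranges on the TMM scale, both higher in rats 25-32, by 9.75% and 17.6%. Neither was called there with edgeR (adjusted p = 0.217 and 0.0756). On library totals both overlapped in WT rats. SOD2 lay at 302 to 331 CPM in WT rats 17-24 and 317 to 335 in WT rats 25-32. PRDX6 lay at 322 to 344 and 331 to 376 CPM. From rats 17-24 to rats 25-32, SOD2 was thus higher in WT and lower in KO on the TMM scale alone. On library totals only the KO groups of SOD2 stayed apart, at 319 to 341 CPM in rats 17-24 and 281 to 308 in rats 25-32. For the WT rats the share of all symbols without overlap was not counted. Among WT rats, 6 of 11 proximal tubule markers were higher and 1 lower in rats 25-32, and 4 of 5 distal nephron, 4 of 5 podocyte and 4 of 5 endothelial markers were lower. Their part in the members' values was not tested, and the labels do not say what sets the ranges apart.

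Between the species, the genotype difference was tested as an interaction over 11216 shared symbols (limma). Both number ranges of the rats were pooled without a term for the range, so the spread between the ranges entered the intervals. A test that does not pass does not show that the species are alike. None of the 9 members passed, against 3.17% of all symbols, none had an unadjusted p under 0.05, and edgeR on the reads called none either. The differences of rat minus mouse ran from -0.20 for GPX1 (95% interval -0.84 to 0.44) to 0.29 for SOD3 (interval -0.50 to 1.07). The narrowest intervals were those of PRDX3, -0.14 to 0.09, and SOD2, -0.16 to 0.16.

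The wider pathway was described by lists of related genes, fixed by symbol. The shares of all symbols called were 27.5% over all rats, 43.8% in rats 25-32 and 4.32% in mice. On library totals 3331 of 11584 symbols were called over all rats, 79.4% of them higher. In rats 25-32 it was 5387 of 11633, 78.9% of them higher. The list counts were not tested against these shares. Of 12 genes of the peroxiredoxin and thioredoxin cycle, 2 were higher and 3 lower in KO over all rats, with a list median of -0.03 against -0.02 over all symbols. SRXN1, the sulfiredoxin that restores overoxidized peroxiredoxins, was higher over all rats (adjusted p = 3.69e-06), by 1.04 in rats 17-24 and 1.46 in rats 25-32 on the log2 scale, with 4.34 to 6.63 CPM in KO and 1.63 to 2.76 in WT rats. PRDX4, the peroxiredoxin of the endoplasmic reticulum, was higher at 0.47 (adjusted p = 0.00172). SESN2, a sestrin, was lower at -0.43 (adjusted p = 0.000817) and TXNRD2, the mitochondrial thioredoxin reductase, at -0.27 (adjusted p = 0.00671). In rats 25-32 the count was 2 higher and 5 lower, and on library totals 4 higher and 3 lower. In mice, none of the 12 passed, and SRXN1 stood at -0.03.

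Of 11 genes of the glutathione cycle tested in rats, 1 was higher and 1 lower. GSR, the glutathione reductase, was lower at -0.36 (adjusted p = 0.000643), from 279 to 384 CPM in WT to 232 to 279 in KO, and GLRX, a glutaredoxin, was higher at 0.52 (adjusted p = 0.0234). GPX4, the peroxidase of lipid hydroperoxides, stood at 0.06 (95% interval -0.11 to 0.24). In rats 25-32, 4 of the 11 were higher and 1 lower, against 21.8% and 22.1% of all symbols. On library totals 8 were higher and 1 lower, against 4252 and 1135 of all 11633 symbols. With TMM, GPX4 stood at 0.20 in rats 25-32 (adjusted p = 0.115). On library totals it passed there at 0.36 (adjusted p = 0.00610) and for the interaction at 0.43 (adjusted p = 0.0129). Among 11 genes of metal and selenium supply, 1 was higher and 6 lower, with a median of -0.27. SEPSECS and EEFSEC, which make and place selenocysteine, were lower at -0.38 (adjusted p = 0.000393) and -0.37 (adjusted p = 0.00176), SCLY, the selenocysteine lyase, at -0.45 (adjusted p = 0.00114), and ATP7B, a copper transporter, at -0.40 (adjusted p = 0.0112). On library totals 4 of the 11 were lower, these 4 among them. In rats 25-32, 3 supply genes were higher and 6 lower, also on library totals. None of the 12 glutathione genes or the 16 supply genes tested in mice passed with limma. With edgeR on library totals 2 of 11 glutathione genes were higher in mice. These were GPX7 at 0.77 (adjusted p = 0.0142), which stood at 0.04 with limma, and GLRX3 at 0.32 (adjusted p = 0.00400).

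CAT, the peroxisomal catalase, was lower in both species. In KO mice it lay at 812 to 971 CPM and in WT mice at 1088 to 1460, without overlap (limma log2 difference -0.52 ± 0.10 SE, adjusted p = 0.0301). In rats 25-32 it lay at 684 to 837 CPM in KO and 1463 to 1579 in WT (edgeR -1.02 ± 0.08 SE, adjusted p = 6.25e-06), whereas in rats 17-24 it did not pass (-0.23 ± 0.10 SE, adjusted p = 0.204). The interaction was -0.79 (adjusted p = 0.00138), and WT rats 25-32 stood 0.72 above WT rats 17-24 (adjusted p = 0.00115). In rats 25-32 the largest difference of a member on the TMM scale was that of SOD3, at 0.34. On library totals CAT stood at -0.86 in these rats and SOD3 at 0.50. In the list of other oxidant removal, 2 of 9 genes were higher and 3 lower over all rats. HMOX1, the inducible heme oxygenase, was higher at 1.63 ± 0.18 SE (adjusted p = 7.49e-06), from 3.83 to 6.07 CPM in WT to 10.4 to 22.8 in KO, and CP, ceruloplasmin, at 1.25 (adjusted p = 0.000132). HMOX2 was lower at -0.26 (adjusted p = 0.0168).

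Of 14 tested sources of superoxide and hydrogen peroxide, 3 were higher and 4 lower in KO rats. NOX4, the renal NADPH oxidase, was lower at -0.88 (adjusted p = 0.00132), and HAO2, a peroxisomal hydroxyacid oxidase, at -0.54 (adjusted p = 0.00304). CYBB, the phagocyte oxidase, was higher at 0.70 (adjusted p = 0.000642). Of 14 genes of mitochondrial content, 5 were lower and 0 higher over all rats, with a median of -0.14. SDHA stood at -0.32 (adjusted p = 0.000632), NDUFS1 at -0.22 (adjusted p = 0.00823), TIMM23 at -0.20 (adjusted p = 0.0183) and HSPD1 at -0.19 (adjusted p = 0.0186). On library totals 1 of the 14 was lower and 1 higher, with a median of -0.05, so the count for this list rests on the scale. Of 12 transcription factors of the members, 2 were lower, FOXO4 at -0.29 (adjusted p = 0.00159) and FOXO1 at -0.45 (adjusted p = 0.0258), and NFE2L2, which encodes NRF2, stood at 0.12 (adjusted p = 0.188). NFE2L2 passed in rats 25-32 at 0.21 (adjusted p = 0.0111), and on library totals over all rats at 0.21 (adjusted p = 0.0297) and in rats 25-32 at 0.37 (adjusted p = 0.000331). On library totals 2 of the 12 were higher and 1 lower over all rats, and FOXO1 was not called (-0.36, adjusted p = 0.0805). In mice, 1 factor, NFKB1, was higher at 0.13 (adjusted p = 0.0387), and no gene of the source or mitochondrial lists passed with limma. With edgeR on library totals 2 of 16 source genes were higher and 1 lower in mice. On that scale 2 of 11 factors were higher in mice, NFKB1 at 0.34 (adjusted p = 0.00472) and RELA at 0.23 (adjusted p = 0.0414).

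Markers of other cell types moved with the genotype in the other comparisons too. In rats 17-24, 3 of 11 proximal tubule markers were lower, with sums of 13582 to 14411 CPM in KO against 16101 to 18276 in WT. The macrophage sum was 176 to 199 CPM in KO and 113 to 147 in WT rats 17-24, and 336 to 494 against 159.7 to 202.5 in rats 25-32. In mice, 1 of 13 proximal tubule markers was lower, and 5 of 9 macrophage and 4 of 6 fibroblast markers were higher. No erythrocyte marker passed between the genotypes in either species. Every proximal tubule, distal nephron, podocyte and endothelial marker in the tables had a mean above 1 CPM, so RNA of more than proximal tubule cells was present. The part of these markers in the members' values was not tested.

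Some members varied together between animals, and for several pairs the sign of the correlation differed between the species. After the mean of each genotype and range was taken off, PRDX2 and PRDX5 had a Pearson r of 0.98 over the 16 rats and 0.49 over the 8 mice. For SOD1 and PRDX6 it was 0.88 and 0.81, and for SOD1 and PRDX5 0.85 in both species. PRDX1 and PRDX3 stood at 0.60 in rats and 0.94 in mice. Pairs of opposite sign included SOD1 and PRDX1, at 0.81 in rats and -0.62 in mice, PRDX1 and PRDX6, at 0.77 and -0.73, and PRDX3 and PRDX6, at 0.71 and -0.60. The highest r of SOD3 with another member in rats was 0.40, with SOD2, and that pair stood at -0.77 in mice. The gene most like each member in rats, of 8056 symbols, was KHK for SOD1 (r = 0.96, and 0.79 in mice), SLC25A5 for PRDX3 (0.95 and 0.73), ARF5 for PRDX5 (0.98 and 0.65) and VMP1 for SOD2 (0.86 and -0.43). PRDX2 was closest to CHCHD7 (0.98 and -0.35), PRDX1 to SARNP (0.96 and -0.10), PRDX6 to ECSIT (0.97 and 0.32), SOD3 to M6PR (0.91 and 0.23) and GPX1 to PTGES2 (0.88 and -0.26). These are descriptions over animals that share a library preparation and a scaling, and 4 of the 9 had an r below 0 in mice.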

How the data were processed

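Genotype and animal number came from the labels, 1 library per animal. The members and all lists were chosen with earlier results of these data known. The mouse table was deposited as a scaled signal; its values equal reads plus 0.5 over the 75th percentile plus 0.5, as worked out here, and reads were recovered from them (99.0% whole within 0.01). The rat table was deposited as estimated counts, equal to reads plus 1/6 and rounded here to whole reads (97.7% whole). The processing notes name STAR 2.7.3, DESeq2 1.24.0 and the builds rn5 and mm10, and the counting tool is not given in the sources used here.

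In R 4.3.3, mouse symbols were tested with limma 3.58.1 (trend, robust) on log2(value + 1) without a filter, which understates changes of low genes. Rat symbols were tested with edgeR 4.0.16 (quasi-likelihood, robust, TMM, filter on low counts). The species test put rat reads on the mouse scale. P-values were adjusted by Benjamini-Hochberg over all symbols, threshold 0.05. Alternatives were an added constant of 0.1, other filters, DESeq2 1.42.0 or its size factors, a number-range covariate, edgeR on mouse reads, each animal left out and, chosen after seeing the data, library totals in place of TMM. No 2 libraries of a group were alike within sampling noise (chi-square per degree of freedom at least 8.85). On simulated reads with 200 genes changed 2-fold, 86% were recovered for the mouse comparison (15828 genes), 96.5% for all rats (11601 genes) and 95.5% for rats 25-32 (11626 genes). For the interaction it was 84.5% (11808 genes) and for the species test 79.5% (11216 genes). A 2-fold change is larger than any difference of a member between KO and WT. These shares therefore do not show how often differences of the members' size are found. Named genes were all members, CTNS, CAT, in each related list at most 4 genes with the smallest adjusted p over all rats and 2 in mice, and for each member the most alike gene of at least 10 CPM; GPX4 was added after its values were seen. Not every gene that the rule picks is reported here.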

Additional observations from a re-analysis of the deposited data

Results flagged for a closer look

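PRDX3 in rat WT 19 was low: 243 CPM, against 269 for the nearest of the 4 WT rats 17-24, a gap of 0.837 of the group's whole range. This was the only outlier among 74 combinations of member and group, and chance marks about 1 in 20. Without this rat the PRDX3 difference between KO and WT over all rats was past the threshold.

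The genotype difference of SOD2 differed between the number ranges of the rats by -0.29 on the log2 scale (adjusted p = 0.0163, edgeR interaction). It was past the threshold in every fit that left out 1 rat, and on library totals it was not.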

How the results depend on the processing

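Of the fits that left out 1 animal, 720 results kept direction and side of the threshold, 18 gained and 25 lost the call and 37 turned; of the other alternatives it was 225, 23, 5 and 12. The members called in mice were 1 with edgeR on reads. Over all rats they were 2 without a filter, 3 with DESeq2 and 3 with the range as a covariate; in rats 17-24 1 with DESeq2's size factors, 1 without a filter and 2 with DESeq2; for the interaction of genotype and range 3 with DESeq2 and 4 on library totals. Leaving out 1 animal gave 0 to 0 members in mice, 0 to 3 over all rats, 0 to 2 in rats 17-24, 2 to 5 in rats 25-32, 1 to 2 for the interaction, 2 to 4 between WT rats and 0 to 0 between species. No paired analysis was run, because the titles give genotype and animal number but no litter or pair.

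On library totals these log2 differences turned: PRDX3 in mice 0.0028; GPX1 0.011, PRDX5 0.012 and PRDX6 0.011 over all rats; GPX1 0.0050, PRDX3 0.0014 and PRDX6 0.042 in rats 25-32; SOD1 0.068, PRDX3 0.072 and PRDX6 0.066 for the interaction; and PRDX1 -0.090 between WT rats. SOD2 between species turned with edgeR on reads, to 0.011. Leaving out 1 animal turned these, with their lowest and highest values: over all rats SOD3, -0.087 to 0.14, and GPX1, -0.18 to 0.0077. In rats 17-24 these were SOD2, -0.013 to 0.031, GPX1, -0.044 to 0.053, and PRDX2, -0.0018 to 0.048, and in rats 25-32 PRDX5, -0.011 to 0.13. For the interaction it was SOD1, -0.14 to 0.014. Between WT rats they were PRDX1, -0.077 to 0.094, and PRDX3, -0.053 to 0.010, and between species SOD1, -0.11 to 0.0060, and SOD2, -0.041 to 0.035. The cause was not tested.

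Over all symbols, 751 were called in mice, 1198 with edgeR on reads, 1485 on library totals and 352 to 683 without 1 mouse. In rats 17-24 it was 843, and 504 to 930 without 1 rat. For the interaction it was 1745, 2656 on library totals and 1010 to 2392 without 1 rat. Between WT rats it was 2108, and 1370 to 2313 without 1 rat. Between species it was 355, 232 with a filter, 235 on library totals and 181 to 478 without 1 animal. The share of calls that were higher moved on library totals from 81.1% to 91.2% in mice (68.0% with edgeR and TMM), from 55.3% to 79.4% over all rats, from 49.7% to 78.9% in rats 25-32, from 48.2% to 86.9% for the interaction and from 48.0% to 23.4% between WT rats; between species it was 56.9%, and 70.7% with edgeR.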
